A study of Mus musculus with 24 samples.

Results

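Collagen genes were followed through early mouse limb bud growth in the total RNA of 24 libraries. All 44 gene symbols of the form Col, number, a, number were taken from the deposited tables of 38019 symbols, and Col2a1, Col9a1, Col9a2 and Col9a3, the collagens that define cartilage matrix, were set aside. The other 40 are described here. The label "outside cartilage" holds only in part, since Col10a1, Col11a1, Col11a2 and Col27a1, which are also known from cartilage, remain among the 40. They fall into 10 fibril-forming, 6 basement membrane network, 6 beaded filament, 6 fibril-associated, 4 transmembrane, 3 short-chain network and 2 multiplexin genes, 1 anchoring fibril gene and 2 others.

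The libraries came from forelimb (FL) and hindlimb (HL) buds of C57/Bl6 embryos at the embryonic day stages E10.5 and E11.5, with 3 libraries in each of 8 groups. All embryos carried a U11 allele flanked by loxP sites on both copies (U11flx/flx). Controls lacked the recombinase transgene (U11flx/flx::Prrx1-Cre-, called WT here although the floxed alleles are present), and mutants carried it (U11flx/flx::Prrx1-Cre+). U11, the product of Rnu11, is a small nuclear RNA of the minor spliceosome, and Prrx1-Cre is known to recombine in limb bud mesenchyme, so ectoderm, vessels and blood of a mutant bud are not its target. The labels do not say which libraries share an embryo or a litter, so p-values measure the spread between these libraries. The series title sets limb growth against limb patterning as the question behind the mutant.

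Collagens are secreted or membrane-bound proteins of 3 chains wound into a triple helix. Fibril-forming collagens make the tensile fibrils of connective tissue, network collagens make the sheet of the basement membrane under epithelia and around vessels, and beaded filament, fibril-associated and transmembrane collagens link these to each other and to cells. In the limb bud the mesenchyme has not yet laid down bone or tendon, and a basement membrane separates it from the ectoderm.

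The windows just upstream of the annotated starts of 3 collagen genes are shown because these genes stand for the patterns described below. Col3a1 had the highest level and passed no test at the main settings, Col6a3 had the largest stage rise in FL WT, and Col8a1 was the gene that passed a genotype test. Each window holds the 250 bases before the RefSeq start site in GRCm38.p6, 5′ to 3′ on the gene's strand, and contains no exon annotated in GENCODE M21. Capitals mark the CCAAT box, the GC box core GGGCGG and the TATA box letters TATAAA, each searched on both strands.
Col3a1 chr1:45311288-45311537 (plus strand): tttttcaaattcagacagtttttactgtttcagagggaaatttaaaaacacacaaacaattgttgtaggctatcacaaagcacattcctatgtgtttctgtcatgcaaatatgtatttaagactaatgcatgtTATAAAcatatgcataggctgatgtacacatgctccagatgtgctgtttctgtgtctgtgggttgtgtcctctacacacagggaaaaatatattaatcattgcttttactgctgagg
Col6a3 chr1:90843972-90844221 (minus strand): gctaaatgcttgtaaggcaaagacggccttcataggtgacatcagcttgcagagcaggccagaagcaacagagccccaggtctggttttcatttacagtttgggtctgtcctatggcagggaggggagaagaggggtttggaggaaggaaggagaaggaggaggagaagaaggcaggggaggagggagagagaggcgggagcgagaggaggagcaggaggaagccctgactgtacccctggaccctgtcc
Col8a1 chr16:57754738-57754987 (minus strand): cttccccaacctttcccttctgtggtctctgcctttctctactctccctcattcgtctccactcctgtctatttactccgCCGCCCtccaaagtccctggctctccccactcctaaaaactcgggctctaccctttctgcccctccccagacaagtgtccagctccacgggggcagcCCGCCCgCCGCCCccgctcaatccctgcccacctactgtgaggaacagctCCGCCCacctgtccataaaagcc
The Col3a1 window held TATAAA and neither of the other motifs, the Col8a1 window held GGGCGG at 4 places, and the Col6a3 window held none of these letters. Windows were found for 33 of the 40 genes, 35 windows in all. CCAAT occurred in 12 of the 35, against 33.8% of 32851 windows in the whole table. GGGCGG occurred in 21, against 32.7%, and TATAAA in 5, against 12.4%. Such matches describe the letters alone.

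Levels are given as TPM, a transcript abundance corrected for gene length that the authors scaled to a sum of 1000000 per library. They were rescaled here so that all libraries shared 1 median over the 3518 genes that reached 5 TPM throughout. The TPM tables keep no read depth, so the precision of values below 1 is unknown. Rnu11 was read first as a check of the labels. It ranged from 1253 to 1344 in E11.5 FL WT and 135 to 237 in FL mutant, from 922 to 2087 and 337 to 419.6 in HL, from 427 to 716 and 164 to 267 in E10.5 HL, and from 251 to 1063 and 94.2 to 482 in E10.5 FL. Only the E10.5 FL ranges overlapped. In that stage and limb, mutant replicate 3 held the hindlimb genes Pitx1 at 1.53 and Hoxc10 at 3.91 rescaled TPM, and WT replicate 1 had the forelimb gene Tbx5 at 2.25 against 7.47 and 10.1. At E11.5, HL mutant replicate 3 stood apart in connective tissue genes, with Postn at 45.2 and Dcn at 6.79. The sex of the embryos is not in the labels. Xist, the RNA of the inactive X, exceeded 5 TPM in 6 libraries, all of them mutant (replicates 1 and 3 of both limbs at E10.5, replicate 3 of both limbs at E11.5), and was at most 1.32 in WT libraries, so Xist differed with genotype. Ddx3y, a Y-linked gene, was at 7.905 or more in each WT library and at most 0.0291 in 5 of those 6, while E10.5 FL mutant replicate 3 held both, with Xist at 8.03 and Ddx3y at 6.49. Prrx1, which defines the mesenchyme, was at 17.2 to 66.3 in all 24 libraries, and the endothelial gene Pecam1 and the ectodermal gene Krt8 were present in each. Differences below come from limma on log2(rescaled TPM + 1), two-sided, with Benjamini-Hochberg adjustment over all genes tested and a threshold of 0.05. On that scale the change of a low gene is understated. In bulk tissue, fewer cells of a type and less RNA per cell cannot be told apart.

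A few genes made up most of the collagen RNA. Of the 40, 7 averaged at least 5 rescaled TPM over the 24 libraries, 11 averaged 1 to 5 and 22 less than 1. The 7 highest, Col3a1, Col26a1, Col1a2, Col4a1, Col18a1, Col5a2 and Col4a2, made 75.7 to 85.4% of the summed level of the 40 in any library. That sum was 100.8 to 154.9 rescaled TPM over the 12 E10.5 libraries and 155.4 to 206.6 over the 12 E11.5 libraries, where the highest E10.5 library and the lowest E11.5 library nearly met. The set-aside cartilage collagens summed to 6.25 to 14.5 and 13.3 to 39.3.

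**Figure D1:**
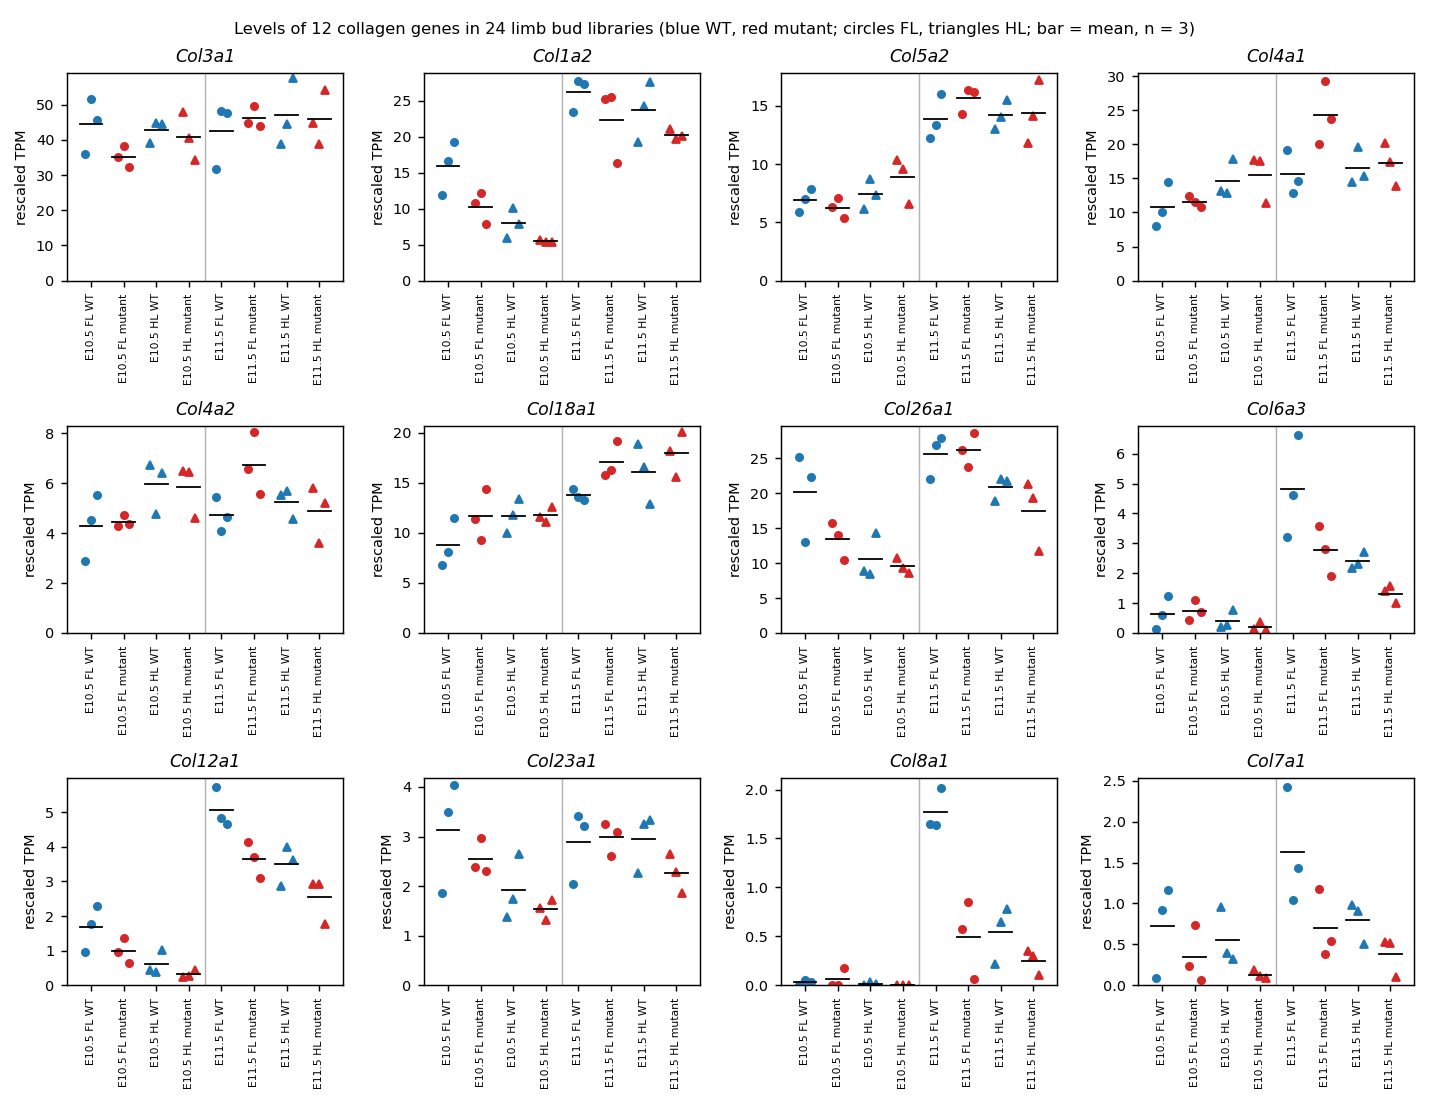
Rescaled TPM (y axes, linear, from 0) of 12 collagen genes in each of 24 libraries by stage, limb and genotype (x axes), with points for libraries and bars for means of 3. Col5a2 and Col12a1 lie higher at E11.5 in every limb and genotype, Col3a1 is at 31.6 to 57.7 throughout, and Col8a1 is highest in E11.5 FL WT.

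The fibril-forming collagens were led by Col3a1, whose product builds thin fibrils with type I collagen in soft connective tissue. At E10.5, Col3a1 read 35.98, 51.6 and 45.7 rescaled TPM in the WT FL libraries, 35.2, 38.2 and 32.3 in mutant FL, 39.1, 44.8 and 44.5 in WT HL and 48.1, 40.5 and 34.2 in mutant HL. The E11.5 libraries read 31.6, 48.2 and 47.5 in WT FL, 44.7, 49.8 and 43.9 in mutant FL, 38.8, 44.6 and 57.7 in WT HL and 44.8, 38.9 and 54.2 in mutant HL. In FL mutant the E11.5 libraries lay above the E10.5 libraries, at a log2 difference of 0.38 ± 0.18 (SE, adjusted p = 0.101), while the other 3 pairs of stages overlapped, and no stage, limb or genotype test was passed. With only the FL mutant libraries in the fit the FL mutant difference passed (0.39, adjusted p = 0.0209). Col3a1 supplied 29.5 to 37.7% of the summed level of the 40 genes at E10.5, then 18.8 to 30.7% at E11.5.

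Col1a2, the α2 chain of type I collagen, rose with stage. At E10.5, Col1a2 read 11.9, 16.6 and 19.3 rescaled TPM in the WT FL libraries, 10.8, 12.2 and 7.85 in mutant FL, 6.0, 10.1 and 7.86 in WT HL and 5.67, 5.35 and 5.36 in mutant HL. At E11.5 it read 23.5, 27.7 and 27.3 in WT FL, 25.2, 25.5 and 16.4 in mutant FL, 19.3, 24.3 and 27.6 in WT HL and 21.1, 19.7 and 20.1 in mutant HL. Every E11.5 group lay above the E10.5 group of the same limb and genotype. The limma log2 difference of E11.5 from E10.5 was 0.70 ± 0.20 (SE, adjusted p = 0.00927) in FL WT, 1.04 ± 0.20 (SE, adjusted p = 0.000863) in FL mutant, 1.47 ± 0.20 (SE, adjusted p = 2.899e-05) in HL WT and 1.72 ± 0.20 (SE, adjusted p = 8.75e-06) in HL mutant. The FL WT difference was lost when WT replicate 1 of E10.5, the library low in Tbx5, was left out (0.52, adjusted p = 0.0534) and on the deposited scale (0.24, adjusted p = 0.637).

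Col1a1, which encodes the partner α1 chain, was far lower and passed no test with all libraries. It ranged from 0.723 to 2.94 rescaled TPM at E10.5, then from 1.82 to 6.77 at E11.5, and the highest value was in E11.5 HL mutant replicate 3. Its stage difference passed in FL WT without E10.5 FL WT replicate 2 (0.91, adjusted p = 0.0482) and in HL mutant without E11.5 HL mutant replicate 1 or 2 (0.96 to 0.99, adjusted p = 0.03904 to 0.0429). Within a library, Col1a2 stood at 2.97 to 16.5 times Col1a1, although type I collagen is known to hold more α1 than α2 chains. The ratio in HL mutant replicate 3 of E11.5 was the lowest of the 24.

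Col5a2, a chain of the type V collagen that nucleates fibrils and regulates their diameter, also rose. At E10.5, Col5a2 read 5.92, 6.98 and 7.86 rescaled TPM in the WT FL libraries, 6.34, 7.09 and 5.37 in mutant FL, 6.11, 8.72 and 7.38 in WT HL and 10.4, 9.62 and 6.595 in mutant HL. By E11.5 the levels were 12.2, 13.3 and 16.01 in WT FL, 14.3, 16.4 and 16.2 in mutant FL, 13.01, 14.03 and 15.5 in WT HL and 11.8, 14.1 and 17.2 in mutant HL. The stages separated in each limb and genotype. The stage difference was 0.91 ± 0.16 (SE, adjusted p = 0.000423) in FL WT, 1.20 ± 0.16 (SE, adjusted p = 6.44e-05) in FL mutant, 0.86 ± 0.16 (SE, adjusted p = 0.000505) in HL WT and 0.65 ± 0.16 (SE, adjusted p = 0.00472) in HL mutant. Its partner Col5a1 passed only in FL, at 0.41 in WT and 0.45 in mutant. On the deposited scale it was called in neither (0.08, adjusted p = 0.845 in WT and 0.60, adjusted p = 0.0725 in mutant). Its level was 1.3 to 2.11 in E10.5 libraries, against 1.72 to 2.96 in E11.5 libraries. The Col5a1 call in FL WT was lost without E10.5 FL WT replicate 2 or E11.5 FL WT replicate 2 or 3 (0.38 to 0.39, adjusted p = 0.0518 to 0.0619), and that in FL mutant without E10.5 FL mutant replicate 1 or E11.5 FL mutant replicate 2 (0.34 to 0.40, adjusted p = 0.0532 to 0.0813). On the scale as deposited the Col5a2 difference in HL mutant turned to -0.14 and was not called, and those of FL WT and HL WT lost their call.

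Col11a1, a chain of the type XI fibril core, and Col27a1, a long fibrillar collagen, passed in HL WT and in no other pair. The Col11a1 difference was 0.46 ± 0.14 (SE, adjusted p = 0.0139) and was not called without E10.5 HL WT replicate 1 or E11.5 HL WT replicate 3 (0.36 to 0.40, adjusted p = 0.0555 to 0.0756). The Col27a1 difference was 0.48 ± 0.17 (SE, adjusted p = 0.0311) and was not called without E10.5 HL WT replicate 1 or E11.5 HL WT replicate 2 or 3 (0.39 to 0.48, adjusted p = 0.06802 to 0.119). On the deposited scale neither was called, with Col11a1 at -0.0058 and Col27a1 at 0.09, adjusted p = 0.789. In FL mutant Col11a1 passed without E10.5 FL mutant replicate 2 (0.41, adjusted p = 0.0486) and Col27a1 without E11.5 FL mutant replicate 3 (0.54, adjusted p = 0.0379). In HL mutant Col27a1 passed without E11.5 HL mutant replicate 3 (0.51, adjusted p = 0.0387). A difference of the stage effect between limbs was not tested. Col24a1, Col11a2 and Col5a3 averaged below 1 and were not tested. Of the 10 fibril-forming genes 7 were tested between stages, and 3 were higher at E11.5 in FL WT, 3 in FL mutant, 4 in HL WT and 2 in HL mutant, with none lower.

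No basement membrane network gene passed between stages in WT with all libraries. Col4a1 and Col4a2 encode the widespread α1α1α2 type IV molecule and lie head to head on chromosome 8 of GRCm38, Col4a1 at 11198423-11312826 on the minus strand and Col4a2 at 11312805-11449287 on the plus strand. At E10.5, Col4a1 read 7.97, 10.1 and 14.4 rescaled TPM in the WT FL libraries, 12.4, 11.52 and 10.8 in mutant FL, 13.1, 12.9 and 17.9 in WT HL and 17.7, 17.5 and 11.4 in mutant HL. The values at E11.5 were 19.2, 12.9 and 14.6 in WT FL, 20.02, 29.3 and 23.7 in mutant FL, 14.4, 19.6 and 15.4 in WT HL and 20.2, 17.4 and 13.9 in mutant HL. The E11.5 FL mutant libraries were all above the E11.5 FL WT libraries. Col4a2 was lower, at 2.88 to 6.73 at E10.5, then 3.605 to 8.06 at E11.5, and it was highest in E11.5 FL mutant at 6.56, 8.06 and 5.56. Both genes passed between stages in FL mutant, Col4a1 at 1.00 ± 0.21 (SE, adjusted p = 0.001896) and Col4a2 at 0.49 ± 0.19 (SE, adjusted p = 0.0473). The Col4a2 call was lost in 11 of 15 alternatives, among them without E10.5 FL mutant replicate 1, 2 or 3 or E11.5 FL mutant replicate 1 or 2 (0.37 to 0.52, adjusted p = 0.0725 to 0.197). The Col4a1 call in FL mutant was lost without the 6 libraries with Xist (1.01, adjusted p = 0.0806). Col4a1 passed in FL WT as well without E10.5 FL WT replicate 3 (0.71, adjusted p = 0.0157). The mutant effect on neither gene was shown to differ between stages or limbs. Col4a1 ran at 1.95 to 2.9 times Col4a2 at E10.5, then 2.62 to 4.84 times at E11.5.

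Col4a5 and Col4a6, X-linked chains of a second type IV network, are also head to head, with 1308 bases between the annotated genes. Col4a5 read 0.663 to 2.16 at E10.5, then 0.9798 to 3.41 at E11.5, and Col4a6 0.1098 to 0.802 and 0.131 to 2.47, with both at their highest in E11.5 HL mutant replicate 3, 1 of the 6 libraries with Xist above 5 TPM. The ratio of the pair separated the limbs. Col4a5 over Col4a6 was 6.03, 7.004 and 5.16 in E10.5 FL WT and 2.32, 2.22 and 3.42 in HL WT, and 7.45, 4.81 and 4.83 against 2.72, 3.396 and 2.62 at E11.5. In mutants it was 3.98, 4.23 and 2.87 against 2.703, 2.31 and 2.74 at E10.5 and 3.61, 5.35 and 3.69 against 2.57, 2.36 and 1.38 at E11.5. HL lay below FL in all 4 pairs of groups without overlap, and the E10.5 FL mutant library with hindlimb genes had the lowest FL ratio. With the 6 libraries with Xist set aside, the mutant ratios were 4.23 in the remaining FL library against 2.31 in the remaining HL library at E10.5, and the E11.5 FL and HL mutant ratios were still apart. This ratio was chosen after the values were seen and was not tested, and 3 libraries against 3 cannot reach p below 0.10 by exact permutation. Col4a3 and Col4a4, the adult kidney chains, did not exceed 0.248 in any library.

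**Figure D2:**
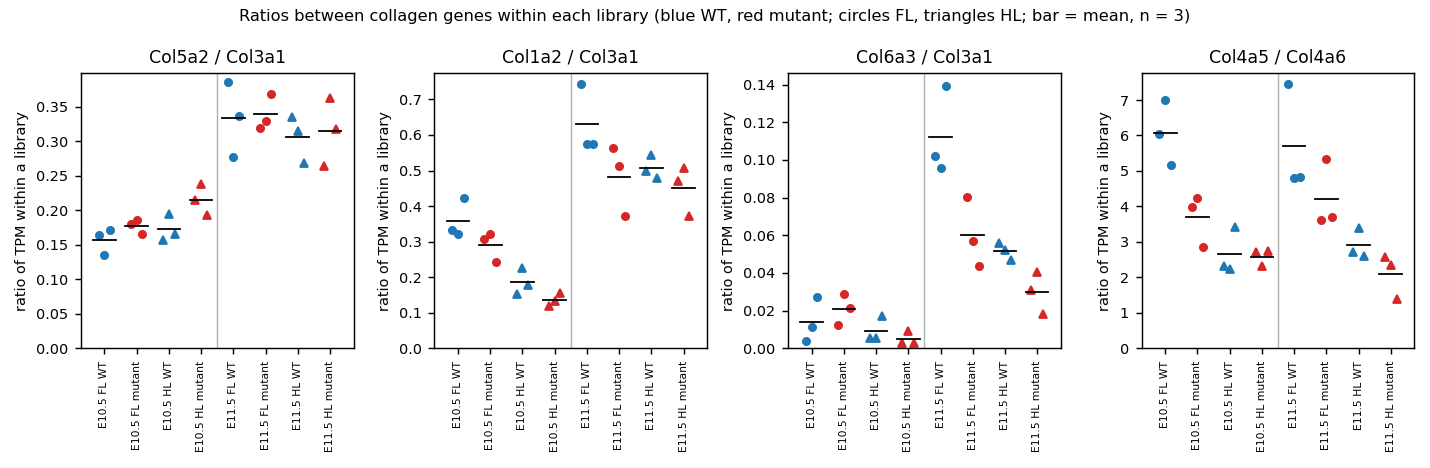
Ratios of TPM between 2 collagen genes within each library (y axes, linear, from 0) by group (x axes), with points for libraries and bars for means of 3; such ratios do not depend on how libraries are scaled. Col5a2, Col1a2 and Col6a3 over Col3a1 are higher at E11.5 in every limb and genotype, and Col4a5 over Col4a6 is lower in HL.

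The multiplexins are proteoglycan collagens of basement membrane zones. Col18a1, the source of endostatin, rose in FL WT, FL mutant and HL mutant. At E10.5, Col18a1 read 6.76, 8.09 and 11.4 rescaled TPM in the WT FL libraries, 11.4, 9.29 and 14.4 in mutant FL, 9.95, 11.8 and 13.3 in WT HL and 11.6, 11.1 and 12.6 in mutant HL. The E11.5 libraries read 14.4, 13.6 and 13.3 in WT FL, 15.8, 16.3 and 19.2 in mutant FL, 18.9, 16.6 and 12.9 in WT HL and 18.1, 15.6 and 20.1 in mutant HL. The stage difference was 0.62 ± 0.17 (SE, adjusted p = 0.00769) in FL WT, 0.53 ± 0.17 (SE, adjusted p = 0.0222) in FL mutant, 0.42 ± 0.17 (SE, adjusted p = 0.0521) in HL WT and 0.56 ± 0.17 (SE, adjusted p = 0.0154) in HL mutant. On the deposited scale no call remained and both HL differences were negative, at -0.19 in WT and -0.24 in mutant. The FL mutant call was also lost without E10.5 FL mutant replicate 1 or 2 or E11.5 FL mutant replicate 3 (0.38 to 0.52, adjusted p = 0.0554 to 0.116) and the HL mutant call without E10.5 HL mutant replicate 2 or E11.5 HL mutant replicate 3 (0.48 to 0.52, adjusted p = 0.0538 to 0.0575). The HL WT difference passed without E10.5 HL WT replicate 3 or E11.5 HL WT replicate 3 (0.51 to 0.57, adjusted p = 0.0232 to 0.0377). Col15a1, its relative, varied from 0.508 to 5.02 among E10.5 libraries and 0.546 to 1.47 among E11.5 libraries and passed no test with all libraries; its HL WT difference passed without E10.5 HL WT replicate 2 (-1.31, adjusted p = 0.00705).

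Type VI collagen, the beaded filament around cells of connective tissue and muscle, rose as a set of 3 chains. At E10.5, Col6a3 read 0.131, 0.59 and 1.23 rescaled TPM in the WT FL libraries, 0.443, 1.103 and 0.686 in mutant FL, 0.211, 0.2503 and 0.753 in WT HL and 0.145, 0.363 and 0.0892 in mutant HL. At E11.5 it read 3.23, 4.61 and 6.62 in WT FL, 3.59, 2.82 and 1.92 in mutant FL, 2.16, 2.32 and 2.704 in WT HL and 1.395, 1.57 and 0.9903 in mutant HL. The E11.5 libraries lay above the E10.5 libraries in each limb and genotype. The stage difference of Col6a3, the long α3 chain, was 1.83 ± 0.24 (SE, adjusted p = 3.45e-05) in FL WT, 1.11 ± 0.24 (SE, adjusted p = 0.00223) in FL mutant, 1.29 ± 0.24 (SE, adjusted p = 0.000479) in HL WT and 0.95 ± 0.24 (SE, adjusted p = 0.00542) in HL mutant. Col6a3 reached 1 deposited TPM in 13 libraries, of which those at E10.5 were too few to pass the filter. It thus passed through the stage where it was high, and its rises are descriptions only. The calls held in the alternatives in which it was tested, except in mutants without the 6 libraries with Xist. That setting leaves 1 E10.5 mutant library per limb, and the difference was 0.99 in FL and 0.86 in HL.

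Col6a1 and Col6a2, the short chains that pair with it, were near-equal to each other. Col6a1 lay at 0.162 to 0.872 in E10.5 libraries, against 0.698 to 2.48 in E11.5 libraries. Col6a2 lay at 0.148 to 0.7999, against 0.801 to 2.53. Both rose in all 4 stage comparisons, by 0.62 to 0.87 and by 0.66 to 0.93 on the log2 scale. Each reached 1 deposited TPM in 8 libraries, all of them at E11.5. Both thus passed the filter through the stage where they were high, and their rises are descriptions only. Their ratio, Col6a2 over Col6a1, stayed between 0.646 and 1.48. The Col6a1 call in FL mutant was at the threshold without E11.5 FL mutant replicate 2 (0.52, adjusted p = 0.05001), and the HL calls of Col6a1 and the HL mutant call of Col6a2 were lost on the deposited scale. The alternative long chains Col6a4, Col6a5 and Col6a6 were not tested. Col6a5 reached 0.461, 0.486 and 0.5198 in E11.5 FL WT and 0.0124, 0.00758 and 0.0102 in HL WT. In E11.5 mutants it read 0.332, 0.778 and 0.00266 in FL and 0.0113, 0.0125 and 0.143 in HL, where the limbs overlapped.

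Among fibril-associated collagens, which sit on fibril surfaces, Col12a1 rose most. At E10.5, Col12a1 read 0.973, 1.77 and 2.29 rescaled TPM in the WT FL libraries, 0.965, 1.35 and 0.652 in mutant FL, 0.452, 0.384 and 1.02 in WT HL and 0.229, 0.278 and 0.449 in mutant HL. By E11.5 the levels were 5.72, 4.84 and 4.65 in WT FL, 4.15, 3.703 and 3.11 in mutant FL, 2.86, 3.995 and 3.61 in WT HL and 2.93, 2.92 and 1.76 in mutant HL. No E11.5 library of a limb and genotype fell within the E10.5 range. The stage difference was 1.21 ± 0.19 (SE, adjusted p = 0.000179) in FL WT, 1.23 ± 0.19 (SE, adjusted p = 0.000226) in FL mutant, 1.48 ± 0.19 (SE, adjusted p = 2.33e-05) in HL WT and 1.41 ± 0.19 (SE, adjusted p = 4.58e-05) in HL mutant. All 4 calls held in the alternatives run. Col14a1, its close relative, moved the other way in HL, which is given as a description only. It reached 1 deposited TPM in 5 libraries, all of them E10.5 HL, and so passed the filter through the groups where it was high. It read 2.76, 1.103 and 0.456 in E10.5 HL WT and 0.16, 0.197 and 0.199 at E11.5, 3.02, 1.39 and 1.24 in E10.5 HL mutant and 0.268, 0.118 and 0.762 at E11.5. The difference was -0.93 ± 0.26 (SE, adjusted p = 0.00927) in WT and -1.04 ± 0.26 (SE, adjusted p = 0.00564) in mutant. The WT call was lost without E10.5 HL WT replicate 1 (-0.56, adjusted p = 0.0723), the highest of its group. In FL it was 0.212 to 0.785 and 0.156 to 0.518, with no call. Col16a1 passed no test, and Col19a1, Col20a1 and Col22a1 were not tested.

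The transmembrane collagens are cell-surface proteins. Col23a1 was the highest and passed no stage test with all libraries. At E10.5, Col23a1 read 1.86, 3.48 and 4.05 rescaled TPM in the WT FL libraries, 2.38, 2.97 and 2.31 in mutant FL, 1.37, 1.73 and 2.65 in WT HL and 1.55, 1.32 and 1.73 in mutant HL. The values at E11.5 were 2.04, 3.41 and 3.21 in WT FL, 3.25, 2.61 and 3.09 in mutant FL, 2.26, 3.26 and 3.32 in WT HL and 2.64, 2.28 and 1.85 in mutant HL. Ranges of the stages overlapped in all but the HL mutant. The HL WT difference passed without E10.5 HL WT replicate 3 or E11.5 HL WT replicate 1 (0.59 to 0.62, adjusted p = 0.02402 to 0.0422). Col17a1, which anchors basal epithelial cells through hemidesmosomes, rose in all 4 comparisons, which is given as a description only. It reached 1 deposited TPM in 5 libraries, all of them E11.5 FL, and so passed the filter through groups where it was high. It lay at 0.165 to 0.572 in E10.5 libraries, against 0.635 to 2.75 in E11.5 libraries. Its difference was 1.39 ± 0.19 (SE, adjusted p = 4.71e-05) in FL WT, 0.95 ± 0.19 (SE, adjusted p = 0.00122) in FL mutant, 0.60 ± 0.19 (SE, adjusted p = 0.0167) in HL WT and 0.60 ± 0.19 (SE, adjusted p = 0.02) in HL mutant. The HL WT call was lost without E11.5 HL WT replicate 1 (0.53, adjusted p = 0.0630) and the HL mutant call without E10.5 HL mutant replicate 1 or 3 or E11.5 HL mutant replicate 1 or 2 (0.47 to 0.60, adjusted p = 0.0502 to 0.101), and both on the deposited scale. Beside it, Krt14 and Krt5, keratins of basal epithelium, rose in all 4 comparisons, Krt14 by 2.16 to 2.87. Over all genes, 22.4% rose and 16.4% fell in FL WT, and 18.1% and 17.3% in FL mutant. The shares in HL WT were 23% and 17.9%, and those in HL mutant 18% and 17.5%. Of the 8 ectoderm markers 2 rose and 2 fell in FL WT, 2 and 5 in FL mutant, 2 and 1 in HL WT, and 4 and 0 in HL mutant. Their summed level was 32.5 to 93.4 in E10.5 libraries, against 45.3 to 89.4 in E11.5 libraries. Their part in the Col17a1 result was not tested. Col13a1 fell in HL WT, with a difference of -0.41 ± 0.15 (SE, adjusted p = 0.0376), a call lost without E10.5 HL WT replicate 2 or E11.5 HL WT replicate 2 or 3 (-0.42 to -0.32, adjusted p = 0.0695 to 0.151). It reached 1 deposited TPM in 3 libraries, all of them E10.5 HL, and so passed the filter through groups where it was high. Its fall is a description only. Col25a1 passed no test.

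Among short-chain network collagens Col8a1, a chain known from Descemet's membrane and vessel walls, was close to 0 at E10.5. At E10.5, Col8a1 read 0, 0.0513 and 0.0354 rescaled TPM in the WT FL libraries, 0.00565, 0.00509 and 0.175 in mutant FL, 0, 0.0301 and 0.0114 in WT HL and 0, 0 and 0 in mutant HL. The E11.5 libraries read 1.65, 1.64 and 2.02 in WT FL, 0.571, 0.847 and 0.0678 in mutant FL, 0.218, 0.645 and 0.777 in WT HL and 0.3498, 0.301 and 0.103 in mutant HL. It was listed at 0 in 5 libraries, all at E10.5. It reached 1 deposited TPM in 4 libraries, all at E11.5, and so passed the filter through the stage where it was high. Its stage differences are descriptions only. The stage difference was 1.42 ± 0.17 (SE, adjusted p = 1.07e-05) in FL WT, 0.46 ± 0.17 (SE, adjusted p = 0.0364) in FL mutant, 0.59 ± 0.17 (SE, adjusted p = 0.00835) in HL WT and 0.32 ± 0.17 (SE, adjusted p = 0.139) in HL mutant. The FL mutant call was lost without E10.5 FL mutant replicate 1 or 2 or E11.5 FL mutant replicate 1 or 2 (0.29 to 0.43, adjusted p = 0.0983 to 0.217) and on the deposited scale (0.52, adjusted p = 0.0798). Col7a1, the anchoring fibril of skin, was at 0.0643 to 1.17 in E10.5 libraries and 0.103 to 2.42 in E11.5 libraries and passed no test with all libraries, though its FL WT difference passed without E10.5 FL WT replicate 3 or E11.5 FL WT replicate 2 (0.81 to 0.83, adjusted p = 0.0264 to 0.0405). Col10a1 and Col8a2 were not tested. Col26a1, a short collagen first known from testis and ovary, was the second highest gene of the 40. At E10.5, Col26a1 read 25.3, 13.1 and 22.3 rescaled TPM in the WT FL libraries, 15.8, 14.1 and 10.4 in mutant FL, 8.94, 8.42 and 14.3 in WT HL and 10.8, 9.28 and 8.62 in mutant HL. At E11.5 it read 22.1, 26.9 and 27.9 in WT FL, 26.2, 23.8 and 28.7 in mutant FL, 18.97, 22.1 and 21.7 in WT HL and 21.4, 19.3 and 11.8 in mutant HL. The stage difference was 0.37 ± 0.23 (SE, adjusted p = 0.212) in FL WT, 0.93 ± 0.23 (SE, adjusted p = 0.00522) in FL mutant, 0.96 ± 0.23 (SE, adjusted p = 0.00323) in HL WT and 0.77 ± 0.23 (SE, adjusted p = 0.0145) in HL mutant, so that FL WT alone did not pass. The HL mutant call was lost without E11.5 HL mutant replicate 1 or 2 (0.62 to 0.69, adjusted p = 0.0656 to 0.0785). On the deposited scale the HL calls were lost and the HL mutant difference was -0.026.

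Counted over the family, 26 of the 40 genes passed the filter of 1 TPM in 3 libraries between stages. In FL WT 10 were higher at E11.5 and 0 lower, against 22.4% of all 12399 genes higher and 16.4% lower. In FL mutant 13 were higher and 0 lower, against 18.1% and 17.3%. In HL WT 11 were higher and 2 lower, against 23% and 17.9%. In HL mutant 9 were higher and 1 lower, against 18% and 17.5%. The median log2 difference of the tested collagens was 0.40, 0.45, 0.43 and 0.34 in that order, beside 0.06, 0.01, 0.06 and 0.02 over all genes. Between these comparisons 15 genes rose in at least 1, 7 in all 4 (Col1a2, Col5a2, Col6a1, Col6a2, Col6a3, Col12a1 and Col17a1), and 2 fell in at least 1. Col6a1, Col6a2, Col8a1 and Col17a1 reached 1 deposited TPM only in E11.5 libraries, and Col13a1 and Col14a1 only in E10.5 HL libraries. Col6a3 reached it in too few E10.5 libraries to pass the filter without those of E11.5. Genes that passed the filter only through the stage where they were high had to differ. Their calls are given as a description, and these counts describe the 26 and not all 40.

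Without both E11.5 mutant replicate 3 libraries, a setting chosen after seeing the data, 13 were higher and 0 lower in FL mutant, and 10 higher and 1 lower in HL mutant. The setting without all 6 libraries with Xist above 5 TPM was likewise chosen after seeing the data. It leaves 1 E10.5 mutant library per limb, whose spread is taken from the other groups, so no count is given. Most calls were lost. Col5a2, Col12a1 and Col17a1 stayed higher in FL mutant, and Col1a2, Col12a1, Col17a1 and Col26a1 in HL mutant. Results of both settings stand without the share of all genes called. They cannot be told apart from a change in calls over all genes. The stage counts moved with the scaling. On TPM as deposited the median over all genes shifted to -0.27 in FL WT, 0.18 in FL mutant, -0.42 in HL WT and -0.61 in HL mutant, and the calls were 6 higher and 0 lower, 9 and 0, 5 and 4, and 3 and 3. These calls stand without the share of all genes called on that scale. They cannot be told apart from the shift of all genes. Ratios to Col3a1 within a library need no scaling, but their genes were chosen with results of these data known. They were not tested, and how many of all genes separate in this way was not counted. A higher ratio can come from more of the first gene or from less Col3a1. Col5a2 over Col3a1 was 0.135 to 0.237 in the 12 E10.5 libraries and 0.265 to 0.386 in the 12 E11.5 libraries, with no overlap. Col1a2, Col6a1, Col6a2, Col6a3, Col12a1 and Col17a1 over Col3a1 were likewise higher at E11.5 without overlap in each of the 4 pairs of groups. Col8a1 over Col3a1 was so in 3 of the 4 pairs, Col18a1 and Col26a1 in 2, and Col4a1 and Col1a1 in 1, although Col18a1 and Col26a1 were each called in 3 comparisons. Reads of the E10.5 libraries were trimmed by 3 nt and those of E11.5 were not, so stage and trimming cannot be told apart. Among cell type markers the mesenchyme sum was 81.2 to 181 at E10.5, then 139 to 194 at E11.5, with 1 of 7 higher and 1 lower in FL WT, 2 and 0 in FL mutant, 2 and 1 in HL WT, and 1 and 1 in HL mutant. The endothelial sum was 22.4 to 43.9 and 14.6 to 29.1, with 4 of 8 lower in FL WT, 1 higher and 1 lower in FL mutant, 4 lower in HL WT and 5 lower in HL mutant. Beside these counts, 22.4% of all genes were higher and 16.4% lower in FL WT, and 18.1% and 17.3% in FL mutant. In HL WT it was 23% and 17.9%, and in HL mutant 18% and 17.5%. The part of these markers in the collagen rises was not tested.

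**Figure D3:**
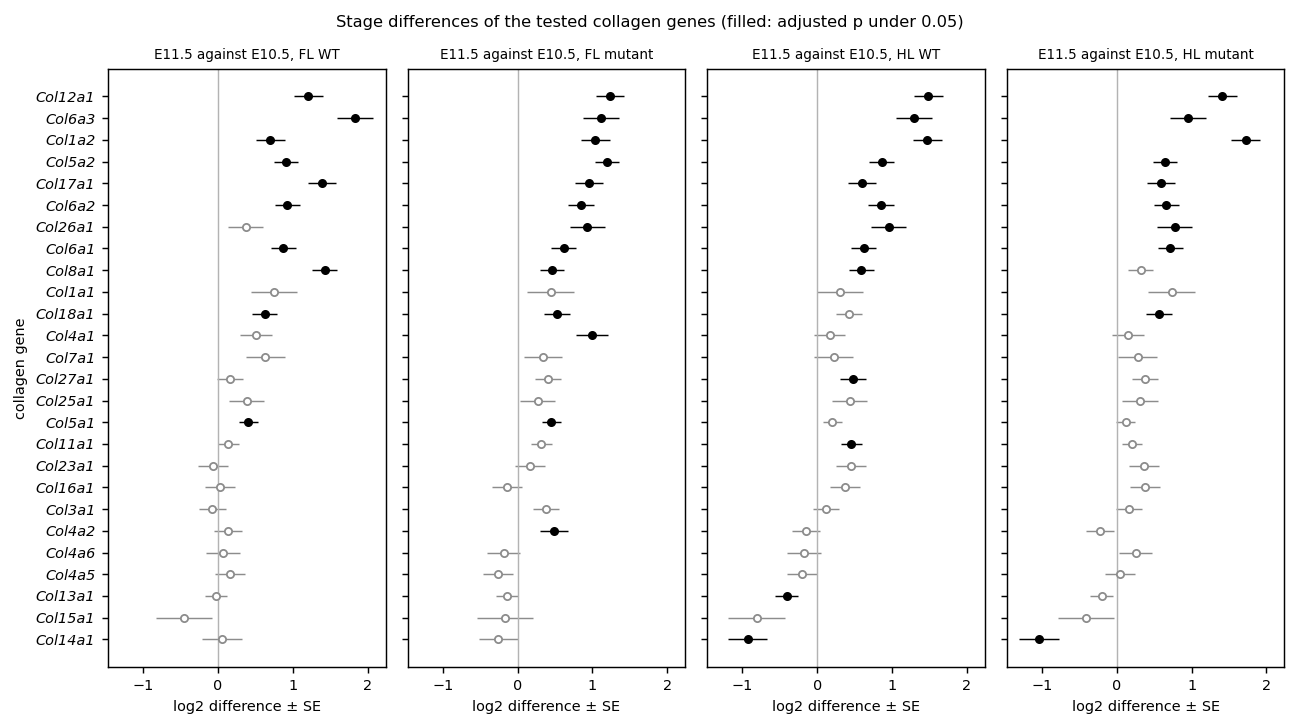
log2 difference of E11.5 from E10.5 with its standard error (x axis) for the 26 tested collagen genes (y axis) in 4 pairs of groups; filled points passed the threshold. Col12a1, Col6a3, Col1a2, Col5a2, Col17a1, Col6a2 and Col6a1 are filled in all panels, and Col14a1 is filled below 0 in the 2 HL panels.

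No collagen passed between the limbs. In HL against FL, 0 of 20 tested genes were called in E10.5 WT, 0 of 20 in E10.5 mutant, 0 of 23 in E11.5 WT and 0 of 23 in E11.5 mutant by limma, where 0.092%, 0.0586%, 0.144% and 0.44% of all genes were. At unadjusted p below 0.05 there were 9, 5, 6 and 7 collagens. Over all genes there were 1143 and 797 of 11955 in E10.5 WT and mutant, and 772 and 1788 of 11126 in E11.5 WT and mutant. Col1a2 was the nearest at E10.5, -0.93 ± 0.21 (SE, adjusted p = 0.157) in WT and -0.80 ± 0.21 (SE, adjusted p = 0.4396) in mutant, with HL below FL without overlap in both. In 1 fit of all 24 libraries the WT difference of Col1a2 passed (-0.92, adjusted p = 0.0277). The Col12a1 difference was below 0 in all 4, at -0.77, -0.64, -0.42 and -0.39, none called. Col6a3 at E11.5 was at -0.71 in WT and -0.65 in mutant, with groups apart and no call. Col8a1 in E11.5 WT was at -0.79 ± 0.18 (SE, adjusted p = 0.2104) and passed in the fit of all 24 libraries (-0.86, adjusted p = 0.0401). Col17a1 there was at -0.70 ± 0.20 (SE, adjusted p = 0.431) and passed when only the WT libraries of the 2 limbs were fitted (-0.68, adjusted p = 0.0318). Col8a1 and Col17a1 reached 1 deposited TPM only in E11.5 FL libraries. They passed the filter through the limb where they were high, and their limb differences are descriptions only. Col14a1 went the other way at E10.5, 0.80 in WT and 1.03 in mutant, uncalled. On TPM as deposited 15 collagens were lower in HL mutant at E11.5, where 46.2% of all genes were called and the median of all genes was -0.44.

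**Figure D4:**
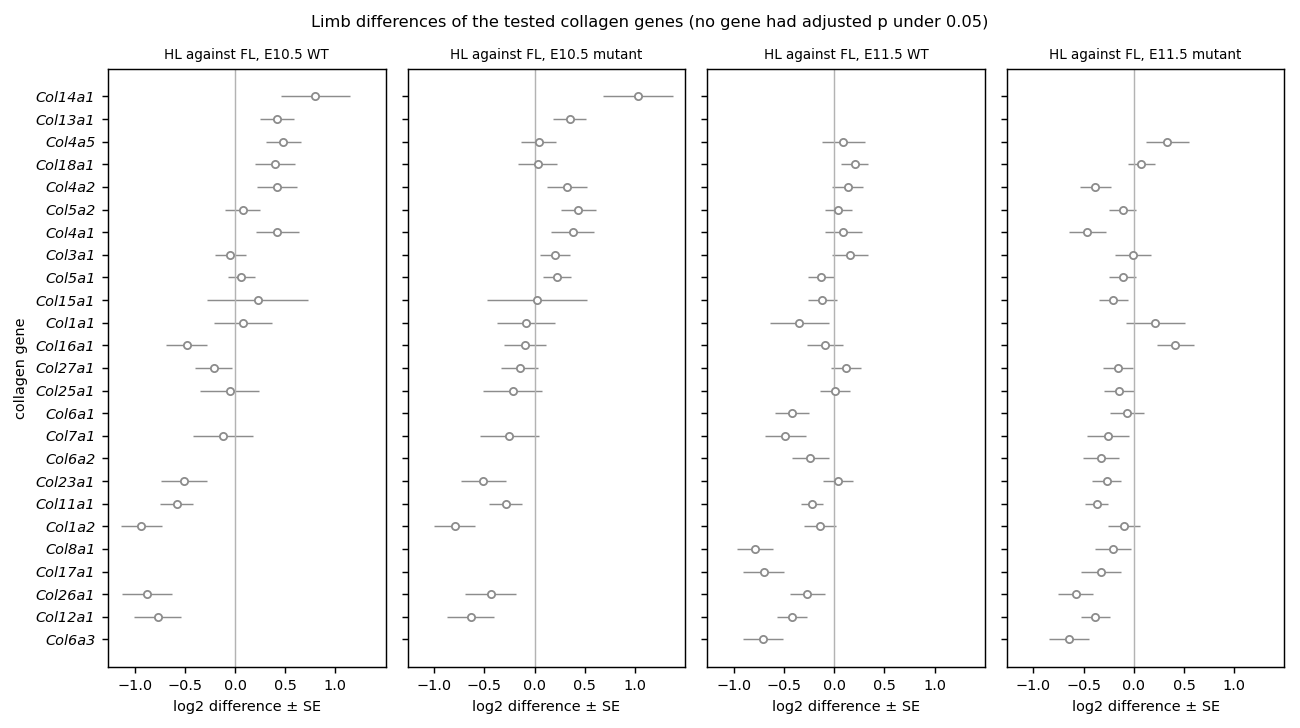
log2 difference of HL from FL with its standard error (x axis) for the tested collagen genes (y axis) at each stage and genotype; no point passed the threshold. Col1a2 at E10.5 lies at -0.93 in WT and -0.80 in mutant.

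Between genotypes 1 collagen passed. In mutant against WT, 0 of 20 tested genes were called in E10.5 FL, 0 of 20 in E10.5 HL, 1 of 23 in E11.5 FL and 0 of 23 in E11.5 HL by limma, where 0.0251%, 0.00836%, 1.74% and 0.018% of all genes were. At unadjusted p below 0.05 there were 2, 0, 8 and 4 collagens. Over all genes there were 626 and 238 of 11955 in E10.5 FL and HL, and 2504 and 670 of 11126 in E11.5 FL and HL. The called gene was Col8a1 in E11.5 FL, with the WT values 1.65, 1.64 and 2.02 and the mutant values 0.571, 0.847 and 0.0678 given above, which did not overlap. It reached 1 deposited TPM in 4 of the 24 libraries, 3 of them E11.5 FL WT, so it passed the filter through the group where it was high and had to differ, and the count of 1 called gene is given as a description. Its mean was 1.77 ± 0.22 (SD, n = 3) in WT and 0.495 ± 0.395 (SD, n = 3) in mutant. The log2 difference was -0.84 ± 0.18 (SE, adjusted p = 0.0411). The call was lost without E11.5 FL WT replicate 2 (adjusted p = 0.102) or 3 (0.128), without mutant replicate 2 (0.063) or 3 (0.101), with a pseudocount of 0.1 (0.0991), without a filter (0.108) and with only the compared libraries (0.0867), though the difference was below 0 in each. Mutant replicate 3, the lowest value at 0.0678, held Xist at 25.9 and Ddx3y at 0.0291, while Xist in the 3 WT libraries did not exceed 0.121. Without both E11.5 mutant replicate 3 libraries, which leaves none with Xist above 5 TPM at E11.5, the difference was -0.63 (adjusted p = 0.0916). In E11.5 HL the Col8a1 difference was -0.26 ± 0.18 (SE, adjusted p = 0.767), and the difference of the mutant effect between limbs was 0.58 ± 0.25 (SE, adjusted p = 0.357), not called.

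The other E11.5 FL differences were uncalled. Col4a1 was at 0.61 ± 0.19 (SE, adjusted p = 0.0936) and Col4a2 at 0.42 ± 0.16 (SE, adjusted p = 0.151), with mutant libraries above WT libraries in both. Col6a3 was at -0.58 ± 0.20 (SE, adjusted p = 0.121), Col7a1 at -0.58, Col17a1 at -0.48, Col6a1 at -0.38 and Col12a1 at -0.37. Without WT replicate 1, Col6a3 passed as well (-0.78, adjusted p = 0.0484). On TPM as deposited 6 collagens were called, 5 higher and 1 lower, where 33.6% of all genes were called and the median of all genes was 0.39; there Col12a1 turned to 0.035. In E10.5 FL, Col1a2 was at -0.59 ± 0.21 (SE, adjusted p = 0.904) and Col4a5 at 0.50 ± 0.18 (SE, adjusted p = 0.904), neither called. The median over the tested collagens was -0.12, -0.03, -0.14 and -0.11 in E10.5 FL, E10.5 HL, E11.5 FL and E11.5 HL, beside 0.02, 0.01, -0.02 and -0.03 over all genes.

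**Figure D5:**
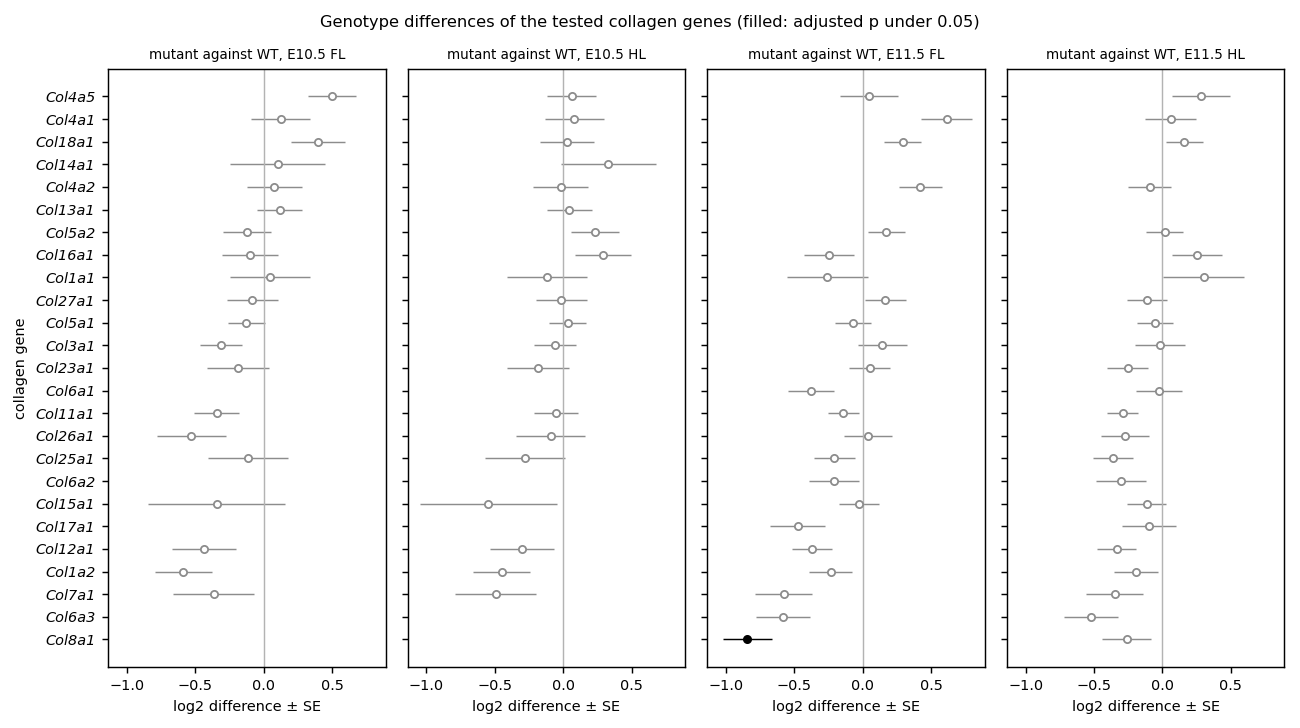
log2 difference of mutant from WT with its standard error (x axis) for the tested collagen genes (y axis) at each stage and limb; the filled point is Col8a1 in E11.5 FL at -0.84. Col4a1 in E11.5 FL lies at 0.61 and did not pass.

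The differences between these effects held no called collagen. The mutant effect in HL minus that in FL gave 0 of 20 at E10.5 and 0 of 23 at E11.5 (0% and 0.00899% of all genes called), and the mutant effect at E11.5 minus that at E10.5 gave 0 of 26 in FL and 0 of 26 in HL (0.0645% and 0.00807%). At unadjusted p below 0.05 there were 0, 2, 2 and 0 collagens. Over all genes there were 298 of 11955, 1493 of 11126, 1578 of 12399 and 327 of 12399, in the same order. Col8a1 was the nearest, where the mutant effect at E11.5 minus that at E10.5 in FL was -0.96 ± 0.23 (SE, adjusted p = 0.174).

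Genes that make, fold and read collagen were followed from a list of 35 modifying and processing genes, of which 26 were tested between stages, and a list of 14 receptors and matrix proteases, of which 8 were. In the first list 8 rose and 1 fell in FL WT, 10 and 3 in FL mutant, 7 and 4 in HL WT, and 9 and 2 in HL mutant. Of all genes, 22.4% rose and 16.4% fell in FL WT, and 18.1% and 17.3% in FL mutant. In HL WT the shares were 23% and 17.9%, and in HL mutant 18% and 17.5%. Lox and Loxl1, which cross-link fibrils, rose in all 4, Lox by 0.86 in FL WT and 0.57 in HL WT. Bmp1, the procollagen C-proteinase, and P3h3, a prolyl 3-hydroxylase family member, also rose in all 4, at 0.83 and 1.20 in FL WT. Lox and Loxl1 were tested in 11 alternatives in HL WT and 13 in HL mutant, where Bmp1 was tested in 12 and 14. They thus did not pass the filter in every set of libraries. Their rises are descriptions only, and the counts above include them. P4ha1, a catalytic subunit of prolyl 4-hydroxylase, fell in all 4. It lay at 8.28 to 15.1 in E10.5 libraries, against 5.57 to 8.68 in E11.5 libraries. Of the receptors, the collagen-binding kinases Ddr1 and Ddr2 rose in all 4, and no other member rose. Ddr2 lay at 5.43 to 14.5 in E10.5 libraries, against 11.3 to 23.5 in E11.5 libraries. Single libraries ended some of these calls: Ddr2 in FL WT without E10.5 FL WT replicate 1 or 2 or E11.5 FL WT replicate 1, 2 or 3 (0.46 to 0.62, adjusted p = 0.0546 to 0.138), Ddr1 in FL mutant without E10.5 FL mutant replicate 2 or E11.5 FL mutant replicate 1 or 2 (0.58 to 0.64, adjusted p = 0.0554 to 0.06697), P3h3 in FL mutant without E10.5 FL mutant replicate 3 or E11.5 FL mutant replicate 2 (0.51 to 0.58, adjusted p = 0.0641 to 0.0709), P4ha1 in HL mutant without E10.5 HL mutant replicate 2 (-0.50, adjusted p = 0.0614) and Lox in HL mutant without E11.5 HL mutant replicate 2 (0.45, adjusted p = 0.0511). On the deposited scale Bmp1 was called in FL mutant alone (0.39, adjusted p = 0.366 in FL WT, 0.60, adjusted p = 0.108 in HL WT and 0.24, adjusted p = 0.482 in HL mutant). P3h3 was called there in HL WT alone (0.77, adjusted p = 0.0542 in FL WT, 0.84, adjusted p = 0.0645 in FL mutant and 0.24, adjusted p = 0.4701 in HL mutant). Ddr1 and Ddr2 were each called there in FL mutant alone, with Ddr1 at 0.52, adjusted p = 0.0653 in FL WT, 0.48, adjusted p = 0.0664 in HL WT and 0.38, adjusted p = 0.1097 in HL mutant, and Ddr2 at 0.10, adjusted p = 0.879, 0.48, adjusted p = 0.288 and 0.06, adjusted p = 0.895. Lox lost both HL calls (0.39, adjusted p = 0.0881 in WT and 0.25, adjusted p = 0.225 in mutant) and P4ha1 the FL mutant call (-0.49, adjusted p = 0.339), while Loxl1 kept all 4. Without the 6 libraries with Xist, P3h3 and Ddr2 in FL mutant and Lox in both mutant groups were not called (adjusted p = 0.0609 to 0.186). No member of either list passed between genotypes. Between limbs Plod2, a lysyl hydroxylase, was lower in E10.5 WT HL, at -0.71 ± 0.11 (SE, adjusted p = 0.0401), and was not called without E10.5 FL WT replicate 1, 2 or 3 or E10.5 HL WT replicate 1, 2 or 3 (-0.75 to -0.65, adjusted p = 0.0512 to 0.188). Mmp2, a gelatinase, was lower in E11.5 mutant HL, at -0.85 ± 0.16 (SE, adjusted p = 0.0483), and was not called without E11.5 FL mutant replicate 1 or 2 or E11.5 HL mutant replicate 1, 2 or 3 (-0.95 to -0.70, adjusted p = 0.0607 to 0.2198).

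The 4 cartilage collagens set aside rose with stage too, 4 of 4 in FL WT and HL WT, 3 in FL mutant and 2 in HL mutant. Of all genes 22.4%, 23%, 18.1% and 18% were higher in these comparisons, in that order. Col9a2 reached 1 deposited TPM in 6 libraries, all at E11.5, and Col9a3 in 7, mainly at E11.5. Both passed the filter through the stage where they were high, so their part in these counts is a description only. Col2a1 was at 2.96 to 7.01 in E10.5 libraries, against 8.41 to 21.7 in E11.5 libraries. The Col2a1 call was lost in HL mutant on the deposited scale (0.67, adjusted p = 0.0895) and in FL mutant without the 6 libraries with Xist (1.24, adjusted p = 0.0673).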

How the data were processed

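Total RNA of dissected limb buds was sequenced by the authors, 1 library per sample, in 8 groups of 3. The authors deposited TPM for each gene symbol, and every library was checked to sum to 1000000. Per the submitters' processing notes, HISAT2 and mm10 were used; how genes were quantified, on which annotation and strand, is not given here. The labels state that E10.5 reads lost 3 nt by trimming.

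Symbols were matched to GENCODE M21 (36287 of 38019; all 40 collagens, all protein-coding). Libraries of a fit were brought to 1 common median on the log2 scale, using those genes that reached 5 TPM throughout. Genes with at least 1 deposited TPM in at least 3 libraries were tested on log2(TPM + 1) by limma 3.58.1 (R 4.3.3, intensity trend), on 12 libraries within a stage and 24 between stages, with the method checked on simulated data. Levels use the scaling over all 24 libraries. Depth is unknown, so no counting interval is given. Pairwise correlations of replicates were 0.923 to 0.980 over 24 pairs and no 2 libraries were identical.

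The collagens, gene lists, tests and alternatives were chosen with earlier results of these data known. Values in every library are given for collagens past the threshold between genotypes or limbs and, in each class, for those averaging at least 5 rescaled TPM or the highest where none did. Stage results name the 6 largest rises and 6 largest falls in WT; other names were chosen after their values were seen. Alternatives were the deposited scale, a pseudocount of 0.1, no filter, protein-coding genes only, other sets of libraries, a replicate block and each library left out.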

Additional observations from a re-analysis of the deposited data

How the results depend on the processing

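Of 247 counts of called collagens under alternatives to the 16 comparisons, 227 stayed within 1.5 times the main count. Most of the 16 comparisons had a main count of 0, and a 0 that stayed 0 is among the 227. That number therefore says little of the comparisons with calls. Counts in this section stand without the share of all genes called under the same setting. For mutant against WT in E11.5 FL (1 called), the count was 6 on TPM as deposited, 0 with a pseudocount of 0.1, without a filter, with only the compared libraries or with the replicate block, 0 with both E11.5 mutant replicate 3 libraries left out (an alternative chosen after seeing the data), and 0 to 2 when single libraries were left out. For HL against FL (0 called), it was 1 in E10.5 WT and 1 in E11.5 WT with all 24 libraries in 1 fit, 1 in E11.5 WT with only the compared libraries, and 15 in E11.5 mutant on TPM as deposited. The E11.5 WT calls were Col8a1 and Col17a1, which passed the filter through FL, where they were high. Between stages, TPM as deposited gave 6 in FL WT (main 10) and 6 in HL mutant (main 10), and only the compared libraries gave 7 in HL WT (main 13), where Col6a1, Col6a2, Col8a1, Col13a1, Col14a1 and Col17a1 did not pass the filter and were not tested and no tested collagen lost its call. Without the 6 libraries with Xist (chosen after seeing the data) it was 3 in FL mutant (main 13) and 4 in HL mutant (main 10), with fewer libraries in the fit. Among the genes named, directions reversed on the deposited scale and under no other setting run, for Col12a1 between genotypes in E11.5 FL (0.035), Col11a1 (-0.0058) and Col18a1 (-0.19) between stages in HL WT, and Col18a1 (-0.24), Col26a1 (-0.026), Col27a1 (-0.16) and Col5a2 (-0.14) between stages in HL mutant, and Plod2 between stages in HL WT (-0.17) and HL mutant (-0.41). The cause was not tested. Replicate numbers of different groups were not shown to pair the libraries: correlations of residuals were all above 0.1 only for E10.5 FL mutant with HL mutant. Same-numbered FL and HL mutant libraries of a stage were also alike in having Xist above 5 TPM or not. Whether they share an embryo is not in the labels, and the main limb tests treat them as separate. The replicate block left Col8a1 uncalled between genotypes in E11.5 FL (adjusted p = 0.0794) and gave 10, 12, 14 and 10 calls between stages in FL WT, FL mutant, HL WT and HL mutant. TPM keeps no depth, which limits what can be said of values below 1.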

Other observations

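Col24a1, Col19a1, Col22a1, Col11a2, Col8a2, Col10a1, Col6a5, Col28a1, Col6a6, Col20a1, Col4a3, Col6a4, Col4a4 and Col5a3 did not pass the filter in any fit of all 24 libraries. Of these, Col24a1 and Col19a1 reached 1.19 and 1.04 rescaled TPM, and Col10a1, the marker of hypertrophic cartilage, did not exceed 0.341. Col19a1 was 1.04, 0.563 and 0.863 in E11.5 FL WT and 0.3502, 0.236 and 0.3304 in HL WT, and 0, 0.148 and 0.331 in E10.5 FL WT. In E11.5 mutants it was 0.8998, 0.572 and 0.255 in FL and 0.419, 0.422 and 0.175 in HL, where the limbs overlapped.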
